A study of Homo sapiens with 3 samples.

Results

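The IGF1 receptor is a receptor tyrosine kinase of the cell surface that, once bound by IGF1, signals through the IRS adaptors to PI3K, AKT and mTOR and through RAS to ERK. AKT keeps the FOXO transcription factors out of the nucleus, and insulin-like signals also act on genes of glucose, lipid and protein synthesis. OSI906 (linsitinib) is a small molecule that blocks the kinases of both the IGF1 receptor and the insulin receptor, so the comparison described here asks which transcripts of IGF1-treated cells differed when that kinase was inhibited. It is the difference between 2 of the 3 arrays of the series, read in 1 color, that of U87WT.

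U87 is an established adult glioblastoma cell line. U87WT 5, called U87WT, is a stable clone of it that carries a vector for GFP-IGF1R, and the labels give the receptor as nuclear; U87Mut 5, called U87Mut, is a clone with a vector for GFP-IGF1R1025x-1100x-1120x, whose receptor is given as non-nuclear. Each is a single clone. RNA of U87WT (Cy5) and of U87Mut (Cy3) was hybridized together on each of 3 Agilent arrays, 1 for FBS-free medium, 1 for IGF1 (50 nM) and 1 for IGF1 (50 nM) with OSI906 (0.5 μM), all for 24 h; the name of the sample gives 0.5 μM and the field for its medium 500 μM. Before the treatments the cells had grown in medium with serum. Every value below is from 1 array per condition, so there is no replicate error, no test and no p value, and a difference between arrays cannot be told apart from a difference between cultures, labelings or hybridizations.

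Probes were counted where the scanner software marked them well above background in Cy5 on both the IGF1 array and the array with OSI906, which held for 32028 of 58201 probes (55.0%); these named 16986 genes, each given below by its brightest probe. Levels are log2 of background-corrected and quantile-normalized brightness and can be compared between arrays for 1 gene, not between genes. The difference is the level with IGF1 and OSI906 minus that with IGF1 alone, so 1 is a doubling. A gene is called higher or lower past a difference of 0.58, which is 1.5-fold. The only error that the arrays hold is that between spots: 284 probes printed 10 times passed the rule, and the SD of the difference over the spots of 1 probe had a median of 0.08 and reached 0.18. It covers the slide and not the culture. Levels in FBS-free medium are given beside, but the IGF1 array enters every difference, so that a level lowest or highest with IGF1 is not separate evidence. In such bulk RNA, fewer cells that express a gene and less RNA of it per cell cannot be told apart. Among the dimmest quintile of the probes the SD of the difference over probes was 0.08, against 0.32 to 0.35 in the 3 brightest quintiles, because the constant of 50 added to each spot draws dim values together; folds of dim genes are therefore understated.

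With OSI906, 416 of the 16986 genes were higher (2.45%) and 299 were lower (1.76%), and 102 (0.6%) and 61 (0.359%) of all genes were past 2-fold. By probe the counts were 759 higher (2.37%) and 469 lower (1.46%) of 32028, of which 162 and 95 had no gene name here. The median difference over all genes was -0.01. Further probes of a called gene did not always give the same: of the 137 higher genes with several probes, all probes had the same sign in 91 and all were past the limit in 22, and of the 87 lower genes these numbers were 41 and 3.

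**Figure D1:**
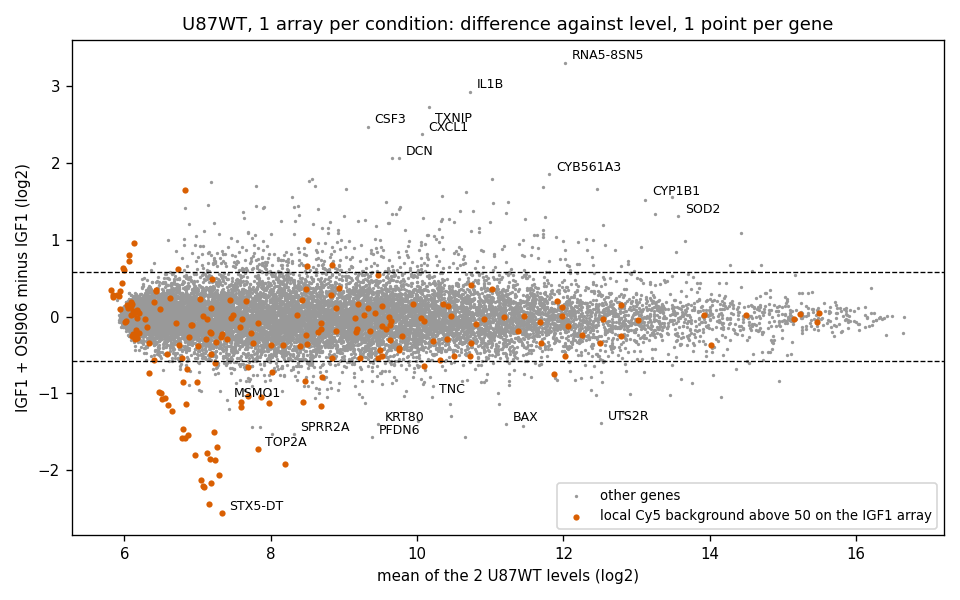
Difference between IGF1 with OSI906 and IGF1 in U87WT (log2, y axis) against the mean of both levels (log2, x axis), 1 point per gene; dashed lines mark 1.5-fold. Orange points are genes whose spot on the IGF1 array had a local Cy5 background above 50, and they make up the lowest values, from -2.56 for STX5-DT, while the highest, from 3.30 for RNA5-8SN5, lie elsewhere.

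A region of the IGF1 array has to be named before any gene is called lower. Its local Cy5 background was above 50 for 642 spots, against a median of 22, and the rule dropped only the 63 spots in and around the part above 1000. No spot of the array with OSI906 was above 50. Of the 385 probes that passed the rule with such a background, 108 were lower and 15 higher, and they held 67 of the 101 probes that were lower past 2-fold. The 12 lowest genes among those whose probes share a sign all lay there: STX5-DT (-2.56), CACNA1C-AS2 (-2.44), IGSF1 (-2.21), LOC101928264 (-2.21), SLC4A9 (-2.16), LINC02639 (-2.12), LINC02008 (-2.07), KCNJ2 (-1.93), ASAH1-AS1 (-1.86), LOC105372906 (-1.86), PPIP5K1P1-CATSPER2 (-1.78) and TOP2A (-1.73), with a local background from 117 to 935. The other probe of IGSF1, outside the region, gave -0.02, and that of ASAH1-AS1 gave -0.07. Without all spots of such a background, 401 genes were higher (2.38%) and 268 lower (1.59%) of 16849, and probes lower past 2-fold numbered 36 in place of 101. The part of the raised background in these values was not tested. Genes called lower below had a local background under 30 on the IGF1 array unless it is given.

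Among the higher genes, those of cytokines, chemokines and the NF-κB response stood together. Of the 19 members of that list that were measured, 14 were higher and none lower, with a median difference of 1.21, beside 2.45% of all genes higher and a median of -0.01. The promoters of the chemokines CXCL1, CXCL2 and CXCL3, of the cytokine IL6, of NFKBIA and of CXCL8 are printed here because they carry letters of the kind that NF-κB is known to bind. Each is the 120 bases before the start of the gene as RefSeq gives it (GRCh38.p14), 5′ to 3′ on the strand of the gene, and capitals mark GGNNTTTCC or its reverse complement, both of which were searched for in all 250 bases before a start.
CXCL1, chr4:73869273-73869392, + strand: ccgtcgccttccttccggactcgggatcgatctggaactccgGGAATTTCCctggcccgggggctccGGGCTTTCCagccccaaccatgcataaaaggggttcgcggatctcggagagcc
CXCL2, chr4:74099196-74099315, - strand: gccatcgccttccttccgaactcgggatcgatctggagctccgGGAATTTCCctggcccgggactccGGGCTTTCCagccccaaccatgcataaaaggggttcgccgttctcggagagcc
CXCL3, chr4:74038690-74038809, - strand: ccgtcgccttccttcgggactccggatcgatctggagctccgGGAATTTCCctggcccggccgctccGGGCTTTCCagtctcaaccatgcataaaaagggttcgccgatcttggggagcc
IL6, chr7:22727080-22727199, + strand: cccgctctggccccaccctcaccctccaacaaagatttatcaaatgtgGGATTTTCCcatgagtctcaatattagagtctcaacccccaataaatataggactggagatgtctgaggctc
NFKBIA, chr14:35404750-35404869, - strand: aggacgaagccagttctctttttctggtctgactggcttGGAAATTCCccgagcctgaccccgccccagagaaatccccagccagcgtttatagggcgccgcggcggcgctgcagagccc
CXCL8, chr4:73740449-73740568, + strand: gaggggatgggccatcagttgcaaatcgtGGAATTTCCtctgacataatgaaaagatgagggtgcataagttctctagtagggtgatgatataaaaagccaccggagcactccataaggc
The stretches of CXCL1 and CXCL3 share 109 of 120 bases, and both hold matches that begin 78 and 53 bases before the start; the match of IL6 begins 72 bases before it and that of CXCL8 91. A match was held by 11 of the 16 measured genes of the list that the promoter table gives (IL6, CXCL1, CXCL2, CXCL3, CXCL8, TNFAIP3, NFKBIA, NFKB1, NFKB2, BIRC3 and ICAM1), by 3 of 22 of the cholesterol list and by 1011 of 13058 measured genes (7.74%). NFKB1, NFKB2, BIRC3 and ICAM1 hold it and were not past the limit, with differences of -0.17, 0.36, 0.50 and 0.43, while IL1B was past it and holds none there. A match is a run of letters and not a site of binding. The list was chosen to hold cytokines and genes of the NF-κB response, so a high share of matches in it was set by that choice. Whether NF-κB had a part in these differences was not tested.

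IL1B, the secreted cytokine interleukin 1β, had the largest difference among protein-coding genes. Its level was 9.41 in FBS-free medium, 9.25 with IGF1 and 12.18 with IGF1 and OSI906, a difference of 2.93 or 7.61-fold. The array with OSI906 was alone in being high. Other genes of the same system, a list put together after its values were seen, were higher too: IL1A by 0.93, the receptor IL1R1 by 1.55, the antagonist IL1RN by 1.34 and the kinase IRAK2 by 0.94, while IL1RAP differed by -0.10 and the adaptor TRAF6 by -0.45. IL1R1 had a further probe with a difference of 0.14. CSF3, the growth factor of neutrophils, went from 7.86 in FBS-free medium and 8.09 with IGF1 to 10.56 with OSI906, a difference of 2.47, and its further probe gave 1.34.

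The chemokines that draw neutrophils were also higher. CXCL1 was at 10.02 in FBS-free medium, 8.88 with IGF1 and 11.25 with OSI906 (difference 2.37, further probe 1.92). CXCL2 was at 10.71, 10.13 and 11.92 in that order (1.79, further probe 1.87). CXCL3 was at 6.91, 7.0 and 8.27 (1.28), and CXCL8 at 6.22, 6.12 and 7.53 (1.41). The first 2 were lowest with IGF1 alone, whereas CXCL3 and CXCL8 had like levels on both arrays without the inhibitor. CXCL8 was dim on those arrays, where differences are understated, so its like levels there say little. CXCL1, CXCL2 and CXCL3 are close copies of each other, and whether their probes read each other's transcripts was not tested. CCL2, which draws monocytes, was at 8.13, 7.64 and 9.40, and its 10 spots gave a difference of 1.76 ± 0.08 (SD over spots). IL6 was at 7.59, 7.19 and 8.60 (1.41), and LIF, of the same cytokine family, at 8.23, 8.34 and 9.66 (1.31, further probe 0.30).

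Of the 9 genes of the NF-κB response in that list, 5 were higher and none lower; NFKB1, NFKB2, ICAM1 and BIRC3, given above, were not past the limit. SOD2, the mitochondrial superoxide dismutase, was at 13.64 in FBS-free medium, 12.91 with IGF1 and 14.22 with OSI906, a difference of 1.31. PTGS2, the inducible cyclooxygenase, differed by 1.21, NFKBIA, which holds NF-κB in the cytoplasm, by 0.93 ± 0.08 (SD over 10 spots), TNFAIP3, an enzyme that ends the response, by 0.80, and RELB, a subunit, by 0.68. PTX3, a secreted pattern recognition protein, was at 10.98, 9.86 and 11.48, with a difference of 1.62 ± 0.08 over its 10 spots. Interferon-stimulated and antigen presentation genes did not stand with them. Of 30, 1 was higher (3.33%, near the 2.45% of all genes), IRF1 (0.67), and none was lower, with a median of -0.05. Markers of blood cells were no higher (PTPRC 0.03, CD14 -0.06; CD68 did not pass the rule).

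**Figure D2:**
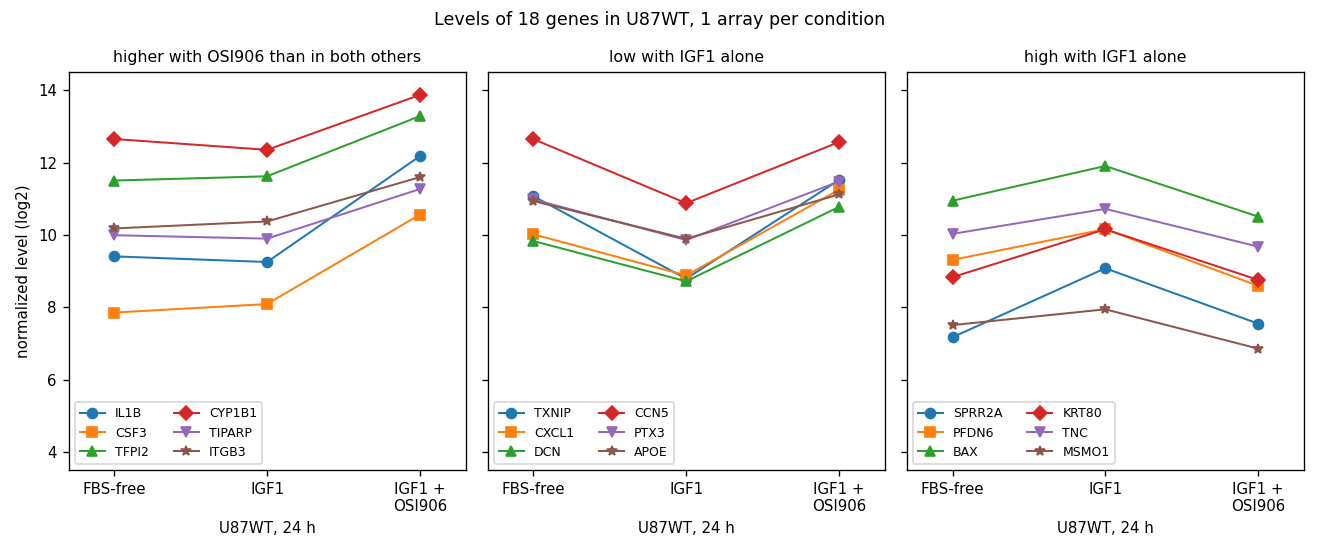
Normalized levels (log2, y axis) of 18 genes in U87WT in the 3 conditions (x axis), 1 array each, in 3 panels by pattern, with genes chosen after their values were seen. IL1B goes from 9.25 with IGF1 to 12.18 with OSI906, TXNIP is low only with IGF1 (8.79) and SPRR2A is high only with IGF1 (9.08).

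TXNIP, which binds thioredoxin and lowers glucose uptake, is known as a gene that FOXO factors and glucose induce. It was at 11.07 in FBS-free medium, 8.79 with IGF1 and 11.52 with OSI906, a difference of 2.73 or 6.63-fold, so that only the IGF1 array was low. Of the 27 measured genes of the FOXO list, 2 were higher (7.41%, beside 2.45% of all genes), TXNIP and CDKN1B (0.78). None was lower, and the median was 0.00. CDKN1B, the cyclin-dependent kinase inhibitor p27, had a further probe at -0.01. FOXO1, FOXO3 and FOXO4 themselves differed by 0.05, 0.00 and -0.06, and IRS2, SESN1 and BBC3 by 0.07, -0.49 and -0.29.

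Of 39 measured genes of the pathway that OSI906 blocks, 2 were higher (5.13%, beside 2.45% of all genes) and none lower (median -0.03). IRS1, the adaptor between the receptor and PI3K, was at 8.40 in FBS-free medium, 7.73 with IGF1 and 8.47 with OSI906, a difference of 0.73 (further probe 0.47), and TSC2, which restrains mTOR, was at the limit with 0.59 (further probe 0.45) and just short of it without the spots of raised background, which leaves 1 of the 39 higher. The receptor IGF1R differed by -0.40, IGF2R by -0.41 and INSR by 0.08; the vector for the receptor is in these cells, and whether the IGF1R probe reads it is not known. In the cascade, EIF4EBP1 differed by -0.52 and MAP2K1 by -0.49. None of 5 measured IGF binding proteins was past the limit.

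Of 29 measured output genes of ERK, 5 were higher (17.2%, beside 2.45% of all genes) and 2 lower (6.90%, beside 1.76%), with a median of 0.05. EGR1, a zinc finger factor, was at 7.84, 7.08 and 8.53 (1.44), and the AP-1 subunits FOSL2 at 10.00, 9.06 and 10.46 (1.40), FOSL1 at 9.71, 9.62 and 10.68 (1.06) and JUN at 11.31, 11.03 and 11.83 (0.81). IER3 was higher by 1.05 with both probes past the limit. FOS differed by 0.17 and JUNB by 0.12, so that the 5 higher genes were all among the 13 early factors, of which none was lower. None of the 10 feedback genes was higher: DUSP5, a phosphatase of ERK, was lower (-0.97, at 7.13, 7.79 and 6.82), SPRY4 gave -0.69 from a probe in the raised region of the IGF1 array and -0.01 from its other probe, and DUSP6, SPRY2 and DUSP4 differed by 0.16, 0.02 and 0.15. MYC and CCND1 differed by 0.19 and 0.04.

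Among genes of the extracellular matrix, 7 of 43 were higher (16.3%, beside 2.45% of all genes) and 3 lower (6.98%, beside 1.76%), with a median of 0.13. Decorin (DCN), a proteoglycan that binds collagen and TGF-β, was at 9.84 in FBS-free medium, 8.72 with IGF1 and 10.78 with OSI906, a difference of 2.06 (further probe 1.31). Lumican (LUM), of the same family, was at 8.32, 7.60 and 9.03 (1.43), and fibronectin (FN1) at 8.85, 7.65 and 9.09 (1.44). All of them were lowest with IGF1 alone. ITGB3, an integrin subunit that binds fibronectin, was at 10.18, 10.38 and 11.60 (1.22), and the membrane protease MMP14 at 12.40, 10.95 and 11.95 (1.00). LOX (0.76) and COL6A2 (0.72) were the others. Tenascin C (TNC) was opposite, at 10.03, 10.73 and 9.68 (-1.04), with SERPINE2 (-0.63) and CCN1 (-0.62). Outside the list, CCN5, a secreted relative of CCN1, was at 12.65, 10.88 and 12.57 (1.69), and the protease inhibitor TFPI2 at 11.51, 11.63 and 13.29 (1.66).

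Of 29 measured genes of cholesterol synthesis and uptake, 3 were lower (10.3%, beside 1.76% of all genes) and none higher, with a median of -0.17. All 3 were among the 20 enzymes of synthesis, of which 18 were below 0 with a median of -0.33; none of the 9 genes of uptake and regulation was past the limit (median -0.11). MSMO1, which removes methyl groups from the sterol ring, was at 7.51 in FBS-free medium, 7.95 with IGF1 and 6.86 with OSI906 (-1.09), IDI1, an isomerase of the mevalonate pathway, at 9.83, 9.96 and 9.08 (-0.88) and HMGCS1, which makes the precursor of mevalonate, at 8.31, 8.41 and 7.77 (-0.65). All 3 were lowest with the inhibitor. MVK and FDFT1 lay just inside the limit (both -0.58), and CYP51A1 was at -0.55 and SQLE at -0.44; ACAT2 (0.48) and MVD (0.33) were above 0. Of 6 measured genes around the liver X receptor and cholesterol efflux, 2 were higher (33.3%, beside 2.45% of all genes) and none lower. All 6 were above 0. That receptor answers to oxidized sterols. APOE, the lipid carrier, was at 10.94, 9.90 and 11.12 (1.23). CH25H, which makes 25-hydroxycholesterol, was at 12.57, 11.64 and 12.40 (0.75). ABCA1, which exports cholesterol, differed by 0.56 with its brightest probe, while a further probe was past the limit (1.27). None of 27 genes of fatty acid synthesis, activation and oxidation was past the limit (median 0.03), FASN at 0.06 and SREBF1 at 0.04, and of 19 glycerolipid genes DGAT1 (0.73, further probes from 0.08) and PLPP3 (0.66) were higher.

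Of 34 genes of glucose use, 1 was higher (2.94%, near the 2.45% of all genes), HK2 (0.86, further probe 0.11), and none was lower (median -0.08). SLC2A1, the basal glucose transporter, differed by -0.47, LDHA by -0.15 and GAPDH by -0.06. LDHA had a further, dimmer probe that was past the limit (-0.64). VEGFA, the vascular growth factor that hypoxia induces, was at 10.88, 11.16 and 12.28 (1.12, further probe 0.25). ADM, a vasodilator peptide, differed by 0.72 ± 0.11 over its 10 spots. With CA12 (0.67) they were the 3 higher of 19 hypoxia targets (15.8%, beside 2.45% of all genes), and none was lower. PDK1 and CA9 differed by -0.37 and -0.09. Among 34 genes that ATF4 is known to induce, 3 were higher (8.82%, beside 2.45% of all genes) and 1 lower (2.94%, beside 1.76%). Their median was -0.02. STC2, a secreted glycoprotein, was at 7.75, 6.95 and 8.65 (1.69). CHAC1 (0.83, further probe 0.23) and ALDH1L2 (0.87) were also higher, and XPOT, which exports tRNA, was lower (-0.86). IDH3A, of the TCA cycle, was lower (-0.76).

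No gene of DNA replication was past the limit, but 33 of 38 were below 0 (median -0.13), with all 14 genes of the helicase and origin below 0. Of 39 genes of mitosis TOP2A alone was past it, from a spot in the raised region, and the median was -0.06. None of 70 ribosomal protein genes was past the limit (range -0.24 to 0.28), nor any of 57 genes of oxidative phosphorylation, 30 of lysosome and autophagy, 29 of ribosome biogenesis or 19 of SUMO and nuclear import. All 8 measured cytosolic chaperones were below 0 (median -0.41), with HSPA1B past the limit (-0.60). Of 25 measured Wnt and TGF-β genes, 2 were higher (8%, beside 2.45% of all genes) and none lower. The 2 were WNT5A (0.89) and AXIN2 (0.78, further probe -0.25).

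**Figure D3:**
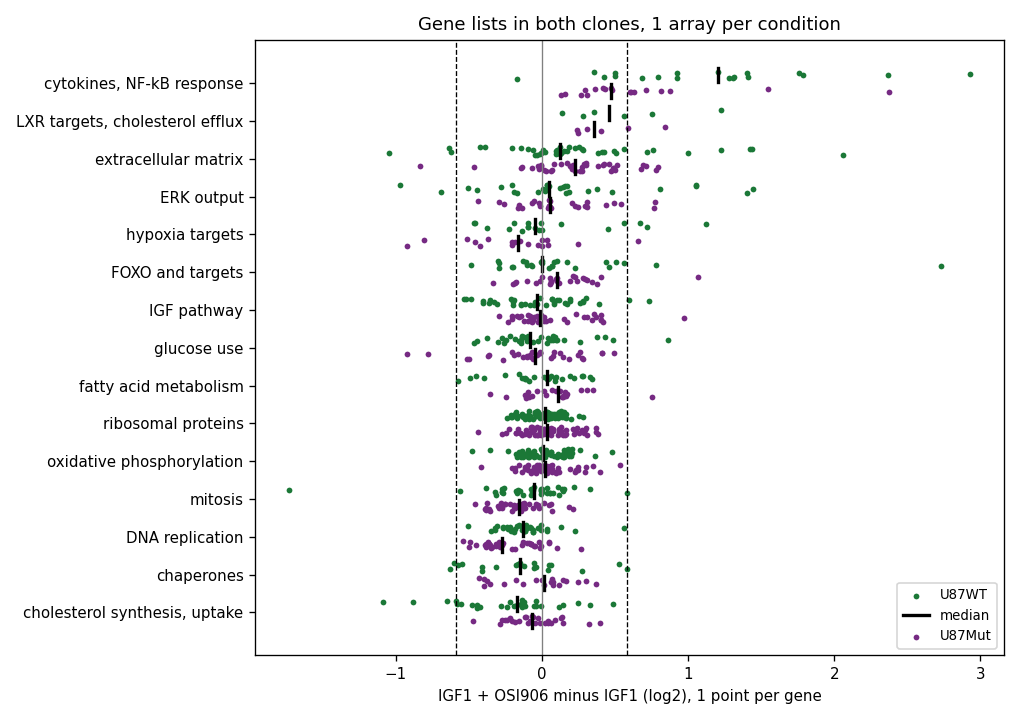
Difference between IGF1 with OSI906 and IGF1 (log2, x axis) for the measured genes of 15 lists (y axis), 1 point per gene, U87WT in green above and U87Mut in purple below; black bars are medians and dashed lines mark 1.5-fold. The cytokine and NF-κB list has a median of 1.21 in U87WT and 0.48 in U87Mut, while ribosomal proteins stay within 0.28 of 0 in U87WT; the lowest point of mitosis, TOP2A, is from the raised region.

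Outside the raised region, the lowest genes were few and varied. PFDN6, a subunit of the chaperone prefoldin, was at 9.31, 10.16 and 8.60, a difference of -1.57 ± 0.10 over its 10 spots, and BAX, which opens the mitochondrial membrane in apoptosis, at 10.95, 11.91 and 10.51 (-1.40 ± 0.08), although its further probe gave -0.41. Small proline-rich proteins of the cornified envelope, a family picked after its values were seen, were lower in 5 of the 5 that were measured (beside 1.76% of all genes). SPRR2A was at 7.17, 9.08 and 7.55 (-1.53), and the others were SPRR2E (-1.53), SPRR2D (-1.44), SPRR2F (-1.43) and SPRR2C (-1.21). All 5 were high only with IGF1; they are near copies of each other, so that their probes are not separate evidence, and the further probes of SPRR2A and SPRR2D gave -0.44 and -0.28. KRT80, a keratin, was at 8.84, 10.16 and 8.76 (-1.40), whereas KRT8 and KRT18 differed by -0.22 and -0.21. BEX2 (9.52, 11.12 and 9.82, difference -1.29) and HKDC1, of the hexokinase family (9.44, 10.69 and 9.33, difference -1.36, further probe -0.21), were also highest with IGF1 alone. The neuropeptide receptors UTS2R (-1.39) and GALR3 (-1.24) and the readthrough transcript GET1-SH3BGR (-1.42) were also lower.

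Among the higher genes were 3 that answer to the aryl hydrocarbon receptor, a sensor of small aromatic molecules. CYP1B1 was at 12.66 in FBS-free medium, 12.36 with IGF1 and 13.88 with OSI906 (1.52, further probe 1.10), TIPARP at 10.00, 9.90 and 11.27 (1.37) and ALDH1A3 at 12.04, 11.91 and 12.91 (1.00). In each, the arrays without the inhibitor were closer to each other than to the one with it. Of the other genes known for the receptor, CYP1A1, CYP1A2 and NQO1 differed by 0.06, 0.11 and 0.16. CYP1A1 and CYP1A2 were dim, at 6.14 and 6.31 with OSI906, and folds of dim genes are understated. AHR, the receptor itself, differed by -0.27, with a further probe at 0.71. This list too was made after its values were seen. CYB561A3, a ferrireductase of the lysosome, was at 11.19, 10.88 and 12.73 (1.85), the antisense RNA ZNF295-AS1 at 8.66, 8.63 and 10.69 (2.06) and KRTAP1-5, a hair keratin-associated protein, at 6.58, 6.30 and 8.06 (1.76, further probe 0.55). RBFOX3, a neuronal splicing factor that stands among the markers of other cells, was at 8.52, 8.57 and 9.81 (1.24), while SYT1 differed by -0.10 and SNAP25 by 0.49. CHI3L1, a secreted glycoprotein of glioblastoma and mesenchymal glia, was at 10.62, 9.71 and 10.95 (1.25). Of the 8 measured glial and glioma markers, 2 were higher (25%, beside 2.45% of all genes), CHI3L1 among them. None was lower (median 0.23). NES differed by 0.53 (further probe -0.22), CD44 by 0.27, VIM by 0.19, S100A6 by 0.07, OLIG2 by 0.05 and ANXA1 by -0.50. GFAP, SOX2 and PDGFRA did not pass the rule.

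RNAs without a poly(A) tail also stood among the highest. The highest value of all was that of RNA5-8SN5, the 5.8S ribosomal RNA, at 12.86 in FBS-free medium, 10.37 with IGF1 and 13.67 with OSI906 (3.30). Small nucleolar and Cajal body RNAs guide the modification of ribosomal and spliceosomal RNA. Of 253 measured genes picked by such names, 28 were higher (11.1%, beside 2.45% of all genes) and 3 lower (beside 1.76% of all genes), with a median of 0.08. The 253 include SNORC (0.06), which is named alike but codes for a protein. Of 63 replication-dependent histone genes 9 were higher (14.3%) and none lower, with a median of 0.26. SNORA54 was at 8.28, 7.66 and 9.46 (1.79), SNORD15A at 8.39, 7.75 and 9.46 (1.70), SNORA16A at 13.19, 12.70 and 14.25 (1.55) and the histone H3C4 at 10.55, 9.72 and 10.86 (1.14). In each of these, the IGF1 array was the lowest of the 3. The labels name priming with a T7 primer mix and say nothing of the integrity of the RNA, and the part of RNA quality in these values was not tested.

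**Figure D4:**
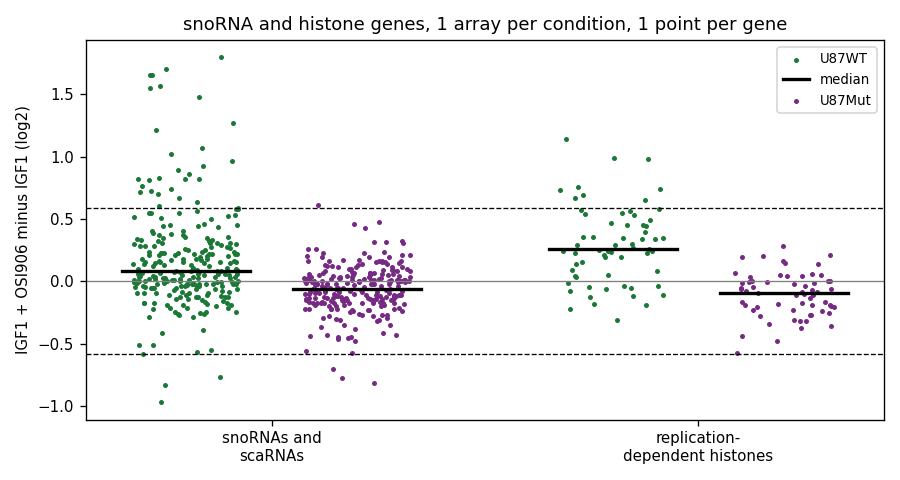
Difference between IGF1 with OSI906 and IGF1 (log2, y axis) for small nucleolar and Cajal body RNAs and for replication-dependent histone genes (x axis) in U87WT (green) and U87Mut (purple), 1 point per gene; black bars are medians and dashed lines mark 1.5-fold. The histone median is 0.26 in U87WT and -0.09 in U87Mut. SNORC, named alike but coding for a protein, is among the points of the small RNAs.

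The same 2 arrays hold U87Mut in Cy3, with RNA of its own, so that the difference can be set beside that of U87WT over the 15480 genes measured in both. In these, 414 genes were higher (2.67%) and 284 lower (1.83%) in U87WT, and 184 (1.19%) and 105 (0.678%) in U87Mut. The difference between the clones has no replicate and was not tested, the dyes were not swapped, and the raised background was in Cy5, so that a larger count in U87WT cannot be told apart from the color. Of the 414 genes higher in U87WT, 113 were higher in U87Mut (27.3%) and 1 was lower; of the 284 lower ones, 51 were lower in U87Mut (18%) and none higher. Across genes, which are not independent and share both arrays, the correlation was 0.50.

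The 3 higher genes that answer to the aryl hydrocarbon receptor had values near each other in both clones. These were CYP1B1 (1.52 in U87WT, 1.57 in U87Mut), TIPARP (1.37 and 1.32) and ALDH1A3 (1.00 and 0.90). Values were also near each other for STC2 (1.69 and 1.59), CHI3L1 (1.25 and 1.43) and UTS2R (-1.39 and -1.45). IL1B was at 9.33, 8.42 and 10.79 in U87Mut, a difference of 2.37 beside 2.93. Most differences of the cytokines were smaller there. CXCL1 gave 1.55 beside 2.37, CSF3 1.01 beside 2.47, CCL2 0.82 beside 1.76, CXCL2 0.36 beside 1.79 and IL6 0.26 beside 1.41. In U87Mut, 8 of the 18 measured genes of the list were higher, beside 1.19% of all genes measured in both clones. TXNIP was at 10.64, 10.23 and 11.30 in U87Mut, so that it was less low with IGF1 than in U87WT and its difference was 1.07. VEGFA (-0.20 in U87Mut), MSMO1 (-0.08), APOE (0.24) and FOSL1 (0.05) were past the limit in U87WT alone, and SLC2A1 (-0.92 in U87Mut, -0.47 in U87WT) in U87Mut alone. Among RNAs without a poly(A) tail, RNA5-8SN5 was higher in both clones, by 3.30 in U87WT and 1.84 in U87Mut. Small nucleolar and Cajal body RNAs had a median of -0.06 in U87Mut with 1 of 242 higher, and histones one of -0.09 with none of 62.

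**Figure D5:**
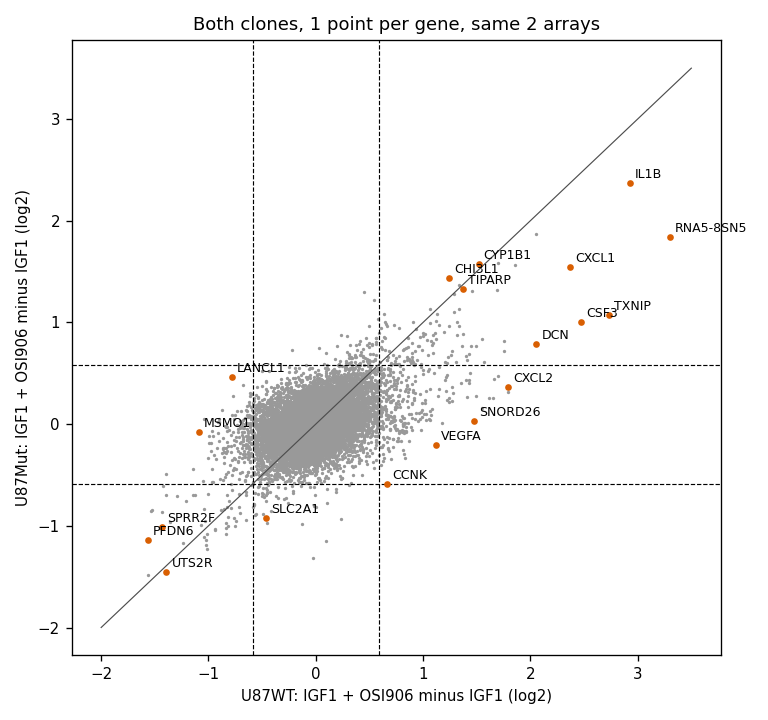
Difference between IGF1 with OSI906 and IGF1 (log2) in U87WT (x axis) and in U87Mut (y axis), 1 point per gene measured in both and outside the raised region; dashed lines mark 1.5-fold and the solid line equal values. IL1B is high in both (2.93 and 2.37), CXCL2 lies near the x axis (1.79 and 0.36) and CCNK alone has opposite signs past the limit.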

How the data were processed

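The deposited intensity values are the output of the scanner software (Feature Extraction 12.0.3.1, per the file headers), not yet normalized: a median for the spot and one for the area around it, in Cy5 and Cy3, and the marks on spot quality named below. The processed intensities of that software, also deposited, served as an alternative. The authors further deposited a table of log2 ratios between the clones, which is not used here.

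In R 4.3.3 with limma 3.58.1, the background was corrected by normexp (saddle, offset 50), fitted without spots marked as not uniform, and the 6 channels were quantile-normalized. Control and outlier spots, and spots with a Cy5 background above 1000 with their neighbors within 1 row or column, were left out, and spots of a probe were averaged. Names were taken by RefSeq transcript (GRCh38.p14) for 34892 of 36770 probes that carry one. Genes named are the 12 highest and 12 lowest whose probes share a sign, the 5 largest of each list and genes the study names; others were singled out after their values were seen, and some genes are not reported here. Members and lists were chosen with earlier results of these data known. Well above background in Cy5 were 57.7%, 58.6% and 60.6% of probes (FBS-free, IGF1, IGF1 with OSI906), and no spot was saturated. The added E1A control RNAs were brighter by a median ratio of 2.57 (2.35 to 2.68) with OSI906 than with IGF1 before normalization. The quantile step gives all channels the same distribution, so each difference is relative to the other probes. What made this ratio was not tested. In simulated data of 33597 probes, 56 of 56 probes of brightness above 200 moved 2-fold or more were called, 91 of 150 of any brightness, and 0 of 33397 others. Both simulated channels were drawn from the Cy5 channel of the FBS-free array, with added noise and an even background. They hold no difference of culture or labeling and no raised region. The 0 calls are therefore not a rate of false calls for the measured arrays. Precision is limited by having 1 array for each condition. Alternatives were the offset, the background fit, the normalization, the filter on dim probes, the fold, the rule for probes of a gene, and, added after seeing the data, leaving out spots marked as not uniform or with a Cy5 background above 50.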

Additional observations from a re-analysis of the deposited data

Results flagged for a closer look

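CCNK, a cyclin of transcription, was the only gene past the limit in opposite directions in the clones, at 0.67 in U87WT and -0.59 in U87Mut; its further probe in U87WT gave -0.42, and the difference between the clones was not tested.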

How the results depend on the processing

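No paired analysis was possible because each condition has 1 array, and for the same reason no replicate could be left out. The counts of 759 higher and 469 lower probes were within 1.5 times under the other normalizations, the filters and the spots left out. They became 2216 and 1596 with an offset of 0, 1160 and 761 with an offset of 20, and 3592 and 2533 with the processed signals, each of which adds less or no constant to dim probes. They were 149 and 101 past 2-fold, 416 and 299 as distinct genes, and 337 and 236 with the mean of the probes of a gene. Of 66 named genes past the limit, 0 changed sign under any alternative that measured them, and 58 to 66 stayed past it where all 66 were measured, with 53 of 56 without the raised background. Many of the 66 were chosen for large differences, and every alternative used the same arrays. Their stability is therefore not separate evidence. The lowest genes, from the raised region, are among the 66, and most of them were not measured without it. Of 28 list medians, 8 changed sign, which had main values from -0.08 to 0.04; the cytokine list ranged from 0.93 to 1.57 and the whole cholesterol list (-0.17) from -0.25 to -0.16. The small nucleolar RNAs had a positive median in U87WT under every normalization.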

Other observations

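Probes well above background on only 1 of the arrays were not counted above. On the array with OSI906 alone there were 3217, and of these 1 was at least 1.5-fold higher by its bound, a probe with no gene name here (at least 1.87-fold). On the IGF1 array alone there were 2035, of which 86 were at least 1.5-fold higher, and the 12 with the largest bounds, up to at least 8.27-fold, had a local Cy5 background from 136 to 934.5 there.

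Metallothioneins, which bind zinc and copper, were above 0 in 9 of 10 measured genes in U87WT, with a median of 0.44 (0.06 in U87Mut). Past the limit were 2 (20%, beside 2.45% of all genes), MT1F (0.82) and MT1X (0.78). The metallothioneins are close copies of each other, and they were picked after their values were seen. YAP1, a coactivator of transcription, was higher by 0.86 ± 0.07 and GNG11, a G protein subunit, by 0.98 ± 0.07, each over 10 spots of a probe, and GBE1, which branches glycogen, was lower (-0.72 ± 0.18).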
